A study of Mus musculus with 22 samples.

Results

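The protein kinase C genes described here are Prkca, Prkcb, Prkcd, Prkce and Prkcz, which encode the alpha, beta, delta, epsilon and zeta isoforms. They were taken by name from an expression matrix of 23361 gene rows, in which each of the 5 genes has 1 row, and all 5 were among the 16978 genes with a mean level of at least 0.1 FPKM (fragments counted per length of transcript and per size of library, so that levels can be compared between genes). Each of 22 libraries came from the microdissected hippocampal CA1 region of a separate female wild-type mouse. The mice were crosses of Swiss Webster with DBA/C57BL6 animals and were perfused before dissection. AL mice ate a normal diet freely and CR mice received a calorie-restricted diet, reduced in carbohydrates, from about the same young-adult age. There were 5 AL and 5 CR mice at 5 months and 6 AL and 6 CR mice at 15 months. The comparisons therefore ask how each isoform differs with age under each diet and with diet at each age. The CR mice at 15 months had been restricted for longer than those at 5 months. Within CR mice, age and time on the diet cannot be told apart. CA1 tissue holds several cell types and the libraries are bulk, so fewer cells of a type and less RNA per cell cannot be told apart.

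Protein kinase C (PKC) enzymes phosphorylate serine and threonine residues after signals that activate phospholipase C, which splits a membrane lipid into diacylglycerol and a messenger that releases calcium. Conventional isoforms such as alpha and beta need both calcium and diacylglycerol, the delta and epsilon isoforms need diacylglycerol without calcium, and the atypical isoforms (zeta and iota) need neither. In hippocampal neurons these kinases act on transmitter release, receptor trafficking and the maintenance of synaptic potentiation. The zeta gene has an internal start used in brain that gives protein kinase M zeta, a short form without the regulatory part of the enzyme. The matrix has a single row for the gene, so the full and the short form are summed in the values below.

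The genes lie on 5 different chromosomes. In GENCODE M21 on GRCm38, Prkca spans chr11:107933387-108343928 on the minus strand, Prkcb chr7:122288751-122634402 on the plus strand, Prkcd chr14:30595354-30626210 on the minus strand, Prkce chr17:86167785-86657919 on the plus strand and Prkcz chr4:155260129-155361361 on the minus strand. The library kit does not mark strand, so reads from an overlapping gene on the other strand cannot be separated from those of the kinase gene. Overlapping annotated genes, counted on either strand, numbered 4 for Prkca, 8 for Prkcb, 3 for Prkce, 1 for Prkcz and 0 for Prkcd. Most of those of Prkcb lie on its own strand. Apoh, which overlaps Prkca on the other strand, and 2010106C02Rik, antisense to Prkce, have rows of their own in the matrix.

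RefSeq promoter windows, which run from 250 bases before to 50 bases after a start, were found for 4 of the 5 genes (Prkca, Prkcb, Prkcd and Prkcz, 7 windows in all). Of these, 3 are printed, namely that of Prkca, whose level fell with age in AL mice, and those of the main start and an internal start of Prkcz, whose single row sums transcripts from all its starts. The name main only marks the Prkcz window furthest upstream, and use of the starts was not measured. A further internal window of Prkcz, whose start lies 1040 bases beyond the printed internal start and nearest to that of a transcript annotated as not coding, is not printed and held 2 GC boxes. All are on GRCm38.p6, minus strand, and are written 5′ to 3′ along the gene in lower case, with capitals for GC boxes (GGGCGG), for the CCAAT box and for the cyclic AMP response element (TGACGTCA), each on either strand. The Prkca window is chr11:108343839-108344138, the main Prkcz window chr4:155361379-155361678 and the internal Prkcz window chr4:155345740-155346039.
Prkca: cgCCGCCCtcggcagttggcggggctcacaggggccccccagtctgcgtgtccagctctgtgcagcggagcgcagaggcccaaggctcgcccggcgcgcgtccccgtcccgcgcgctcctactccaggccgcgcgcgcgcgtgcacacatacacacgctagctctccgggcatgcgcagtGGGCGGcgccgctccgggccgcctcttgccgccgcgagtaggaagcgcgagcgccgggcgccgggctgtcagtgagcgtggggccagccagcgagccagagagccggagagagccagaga
Prkcz main start: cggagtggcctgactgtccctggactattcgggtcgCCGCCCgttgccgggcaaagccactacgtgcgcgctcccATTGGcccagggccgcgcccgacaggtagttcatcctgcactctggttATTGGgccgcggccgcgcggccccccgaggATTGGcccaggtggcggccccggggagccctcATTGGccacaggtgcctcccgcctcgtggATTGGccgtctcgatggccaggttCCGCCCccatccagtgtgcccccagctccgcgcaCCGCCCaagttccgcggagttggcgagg
Prkcz internal start: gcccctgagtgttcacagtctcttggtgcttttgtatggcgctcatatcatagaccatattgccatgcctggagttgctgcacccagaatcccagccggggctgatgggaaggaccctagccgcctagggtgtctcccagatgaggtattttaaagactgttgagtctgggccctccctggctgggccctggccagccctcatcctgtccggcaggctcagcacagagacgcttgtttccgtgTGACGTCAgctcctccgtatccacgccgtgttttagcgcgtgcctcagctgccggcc

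The Prkca window was very rich in CG dinucleotides, with 42 of them and a GC content of 75.3%, and 97.0% of the 32851 RefSeq windows held fewer. It held 2 GC boxes and none of the other motifs searched. The main Prkcz window held 3 GC boxes and 5 CCAAT boxes. The internal Prkcz window, 15639 bases further along the gene, held neither of these and instead a single cyclic AMP response element that begins 7 bases before the start. Its start lay 17 bases from the annotated start of a protein-coding Prkcz transcript. Across all windows, a GC box was found in 35.7%, a CCAAT box in 37.4% and the cyclic AMP response element in 1.79%. TATAAA and CACGTG, searched on both strands as well, were in 13.6% and 7.15% of windows and in none of the 3 shown. A match is only a run of letters, and binding was not measured.

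Prkcb was the most abundant of the 5 genes, with a mean of 119.8 FPKM over all libraries, followed by Prkce (102 FPKM), Prkcz (67.4 FPKM), Prkca (38.3 FPKM) and Prkcd (5.65 FPKM). The order of the 5 genes by mean level was the same in all 4 groups. The libraries of Prkcb and Prkce overlapped in every group, however, so those neighbours are not separated beyond their spread. The libraries of Prkce and Prkcz also overlapped in AL mice at 15 months, and those of Prkcz and Prkca in CR mice at 5 months. Summed over the 5 genes, the level averaged 364 FPKM in the AL mice at 5 months, with an SD of 27.3 (n = 5), 346 ± 38.5 FPKM (n = 5) in CR mice at 5 months, 297 ± 21.7 FPKM (n = 6) in AL mice at 15 months and 333 ± 45.9 FPKM (n = 6) in CR mice at 15 months.

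**Figure D1:**
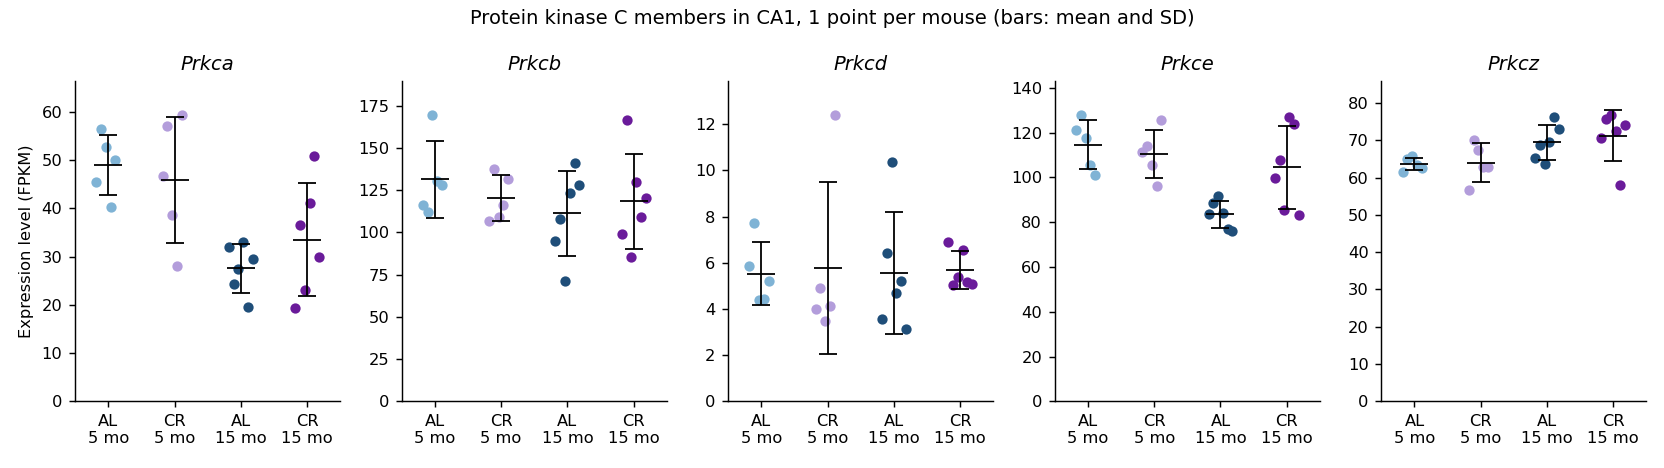
Level of each gene in FPKM (vertical axis, from 0) by diet and age group (horizontal axis), with 1 point per mouse and bars for the mean and SD. All 6 AL mice at 15 months sit below all 5 AL mice at 5 months for Prkca and Prkce, and the groups overlap for Prkcb, Prkcd and Prkcz.

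Before the tests, the libraries were checked against markers of the labelled region. The 5 markers of CA1 pyramidal neurons were above 0 in every library, with summed levels of 134.8 to 326 FPKM in AL mice at 5 months, 178 to 287 FPKM in CR mice at 5 months, 78.8 to 144 FPKM in AL mice at 15 months and 35.4 to 271 FPKM in CR mice at 15 months. In AL mice 4 of the 5 (Fibcd1, Spink8, Pou3f1 and Lefty1) fell with age, while Wfs1 did not pass (log2 fold change 0.63, limma adjusted p = 0.156). Of all genes tested in this comparison, 9.97% passed as lower and 10.7% as higher. The means in AL mice at 5 and 15 months were 62.0 and 10.1 FPKM for Fibcd1 and 68.0 and 6.21 FPKM for Spink8. They were 36.8 and 10.7 FPKM for Pou3f1 and 14.5 and 0.926 FPKM for Lefty1. Wfs1 averaged 56.5 and 83.4 FPKM, so the summed levels understate the fall of the other 4. Of 7 markers of neocortex and subiculum, 4 rose (Rorb, Cux2, Lamp5 and Tbr1). Their summed levels were 68.5 to 105 FPKM in AL mice at 5 months, 52.2 to 85.5 FPKM in CR mice at 5 months, 103 to 209 FPKM in AL mice at 15 months and 67.6 to 191 FPKM in CR mice at 15 months. A region score, the mean log2 level of the cortical list minus that of the CA1 list, summarises this. It ran from -2.88 to -1.10 in AL mice at 5 months, -2.84 to -2.03 in CR mice at 5 months, 0.138 to 2.57 in AL mice at 15 months and -2.36 to 1.53 in CR mice at 15 months. AL mice of the 2 ages did not overlap in it, so within AL mice age and this score cannot be told apart.

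With age in AL mice, 2 of the 5 genes changed, and both fell: Prkca decreased by 44.0% and Prkce by 27.0% on the scale of mean log2 levels. Of all genes tested in this comparison 20.6% passed, and 9.97% passed as lower. The older mice were all below the younger for these 2 genes, as for 6.77% of all genes. Across the 5 genes the median log2 fold change was -0.26, against -0.0018 over all genes tested. Prkcb, Prkcd and Prkcz did not pass. The test was limma's moderated test, two-sided, on log2(FPKM + 0.1), with Benjamini-Hochberg adjustment over all genes tested, and a gene was called at an adjusted p under 0.05. Beside it stands an exact permutation test, also two-sided, on the means of the same log2 values. These p-values measure the spread between mice.

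Among the conventional isoforms, Prkca, the alpha kinase, stood at 45.4, 56.5, 52.6, 40.3 and 50.1 FPKM in the AL mice at 5 months. In the AL mice at 15 months the lowest, median and highest levels were 19.5, 28.5 and 33.0 FPKM. Every older AL mouse was therefore below every younger one. The group means were 49.0 ± 6.30 FPKM (SD, n = 5) and 27.6 ± 5.06 FPKM (n = 6), a log2 fold change of -0.84 ± 0.22 (SE; limma adjusted p = 0.0119; exact permutation p = 0.00216, the smallest that 462 splits allow). The 95% interval of the log2 fold change ran from -1.30 to -0.38, and leaving out any of the 11 AL mice in turn kept it between -0.90 and -0.74 with an adjusted p of at most 0.0333 (limma).

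In CR mice none of the 5 genes passed with age, where 3.36% of all genes did. Prkca was more variable than in AL mice. At 5 months the levels were 46.7, 57.1, 38.7, 28.0 and 59.3 FPKM, and at 15 months the lowest, median and highest were 19.4, 33.2 and 51.0 FPKM. The ages overlapped, with 5 of 6 older mice below the younger median. The means were 46.0 ± 13.0 FPKM (n = 5) and 33.5 ± 11.8 FPKM (n = 6), and the log2 fold change of -0.48 ± 0.22 did not pass over all genes (limma adjusted p = 0.258; exact permutation p = 0.141). The interval, -0.94 to -0.017, includes decreases as large as that in AL mice. In order of mean level the groups ran AL at 5 months, CR at 5 months, CR at 15 months and AL at 15 months. No neighbours in that order passed over all genes (limma adjusted p of 1, 0.258 and 0.613).

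Prkcb, the beta kinase and the most abundant of the 5, did not pass in any comparison. It stood at 116, 112, 169, 130.5 and 128 FPKM in AL mice at 5 months and at 107, 137, 109, 116 and 132 FPKM in CR mice at 5 months. At 15 months the lowest, median and highest levels were 71.3, 116 and 141 FPKM in AL mice and 85.6, 115 and 166 FPKM in CR mice. All 4 groups overlapped. The mean was 131 ± 22.5 FPKM (n = 5) at 5 months and 111 ± 25.3 FPKM (n = 6) at 15 months in AL mice, with a log2 fold change of -0.26 ± 0.17 (limma adjusted p = 0.281; exact permutation p = 0.216). Its interval, -0.61 to 0.090, includes a decrease as large as that of Prkce. In CR mice the difference with age was -0.05 ± 0.17 (limma adjusted p = 0.922). In order of mean level the groups ran as for Prkca, from 131 through 120.2 and 118 to 111 FPKM.

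Of the isoforms that need diacylglycerol alone, Prkce, the epsilon kinase, was the more abundant. The AL mice at 5 months stood at 121, 128, 118, 105 and 101 FPKM. The AL mice at 15 months had a lowest, median and highest level of 76.1, 83.7 and 91.7 FPKM, so that again no older mouse reached the lowest younger one. The means were 115 ± 11.1 FPKM (n = 5) and 83.5 ± 6.13 FPKM (n = 6), with a log2 fold change of -0.45 ± 0.10 (limma adjusted p = 0.00489; exact permutation p = 0.00216, the smallest possible) and an interval of -0.67 to -0.24. With each of the 11 AL mice left out in turn it stayed between -0.50 and -0.41 and passed each time (largest limma adjusted p = 0.0176). The fitted decrease was smaller than that of Prkca, though this difference was not tested, and the spread between mice was smaller too, with a coefficient of variation of 7.35% in the older AL mice against 18.3% for Prkca.

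CR mice did not show a passing change of Prkce with age. Levels were 111, 114, 106, 96.0 and 126 FPKM at 5 months, and the lowest, median and highest at 15 months were 83.3, 104 and 127 FPKM. The older group covered the whole younger range and extended below it. The log2 fold change was -0.09 ± 0.10 (limma adjusted p = 0.679; exact permutation p = 0.485), with an interval of -0.31 to 0.12. The groups ran from AL at 5 months through CR at 5 months and CR at 15 months to AL at 15 months, the same order as for Prkca and Prkcb, and no neighbours in it passed (limma adjusted p of 1, 0.679 and 0.131).

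Prkcd, the delta kinase, was the least abundant of the 5 and did not pass in any comparison. Levels were 5.85, 7.73, 4.40, 4.45 and 5.21 FPKM in AL mice at 5 months. In CR mice at 5 months they were 4.02, 4.93, 3.49, 4.13 and 12.4 FPKM, the last value lying far above the rest. At 15 months the lowest, median and highest were 3.14, 4.96 and 10.4 FPKM in AL mice and 5.04, 5.29 and 6.90 FPKM in CR mice. The 4 group means lay between 5.53 and 5.79 FPKM, within the SD of any group. The log2 fold change with age was -0.07 ± 0.29 in AL mice (limma adjusted p = 0.888) and 0.14 ± 0.29 in CR mice (limma adjusted p = 0.852). These intervals were the widest of the 5 genes, -0.67 to 0.53 and -0.47 to 0.74, so neither a fall as large as that of Prkce nor a rise of similar size lies outside them.

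Prkcz, the atypical zeta kinase with its short form, varied least of the 5 between AL mice at 5 months, with a coefficient of variation of 2.68%, and had higher means at 15 than at 5 months under both diets. The levels were 61.6, 65.1, 65.7, 63.4 and 62.6 FPKM in AL mice at 5 months and 56.7, 70.2, 67.4, 62.8 and 62.9 FPKM in CR mice at 5 months. At 15 months the lowest, median and highest were 63.7, 69.2 and 76.3 FPKM in AL mice and 58.0, 73.2 and 76.7 FPKM in CR mice. All 6 older AL mice lay above the younger AL median, yet the groups overlapped. The difference with age in AL mice was 0.12 ± 0.069 on the log2 scale and did not pass over all genes (limma adjusted p = 0.211; exact permutation p = 0.0281), although quantile normalization took it to 0.19 and past the threshold (limma adjusted p = 0.0266). In CR mice it was 0.15 ± 0.069 (limma adjusted p = 0.243; exact permutation p = 0.102). Without 1 CR mouse at 15 months, replicate 4, which had the level of 58.0 FPKM, it was 0.21 and passed (limma adjusted p = 0.0442).

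The diets were then compared at each age. At 5 months none of the 5 genes passed, and none of the 16978 genes tested did either (0%; limma, with 789 at an unadjusted p under 0.05). The fitted differences of CR from AL were -0.13 for Prkca, -0.12 for Prkcb, -0.07 for Prkcd, -0.05 for Prkce and 0.0040 for Prkcz on the log2 scale. Intervals were narrowest for Prkcz, -0.15 to 0.15, and widest for Prkcd, -0.70 to 0.56.

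At 15 months, again none of the 5 passed, where 0.742% of all genes did. Prkce came nearest. Its mean was 105 ± 18.6 FPKM (n = 6) in CR mice against 83.5 ± 6.13 FPKM (n = 6) in AL mice, with 5 of 6 CR mice above the AL median and overlapping ranges. The log2 fold change was 0.31 ± 0.099, with an interval of 0.10 to 0.52 (limma adjusted p = 0.131; exact permutation p = 0.0260). Leaving out CR replicate 5, whose 83.3 FPKM is the lowest CR value, gave 0.37 and an adjusted p of 0.0441 (limma). Prkca was 0.22 ± 0.21 higher on the same scale (limma adjusted p = 0.613), with 4 of 6 CR mice above the AL median. Differences were 0.09 for Prkcb, 0.13 for Prkcd and 0.03 for Prkcz.

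**Figure D2:**
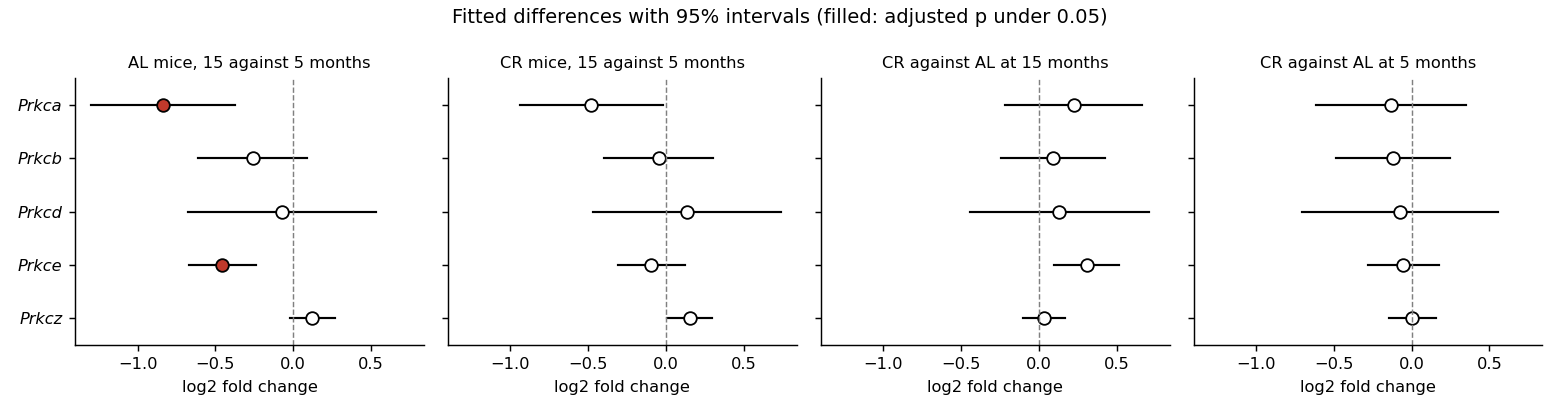
Fitted log2 fold change (horizontal axis) of each gene in 4 comparisons, with lines for the 95% interval and filled points for a limma adjusted p under 0.05. Only Prkca and Prkce with age in AL mice are filled, at -0.84 and -0.45, and every interval for diet at 5 months crosses 0.

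Whether the age difference itself depended on diet was tested as an interaction. None of the 5 genes passed, and none of all genes did (0%; limma, with 1301 at an unadjusted p under 0.05). The difference in slopes was 0.36 ± 0.15 for Prkce (interval 0.054 to 0.67; limma adjusted p = 0.634) and 0.36 ± 0.31 for Prkca (interval -0.29 to 1.01; limma adjusted p = 0.795). So the fall of Prkca and Prkce in AL mice is not shown to differ from that in CR mice. Set against AL mice at 5 months, CR mice at 15 months had Prkca lower by a log2 fold change of -0.61 ± 0.22 (limma adjusted p = 0.132; exact permutation p = 0.0368) and Prkce by -0.15 ± 0.10 (limma adjusted p = 0.471). None of the 5 passed in this comparison, where 3.12% of all genes did. These comparisons share groups of mice and are not independent of each other.

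The region markers moved in the same AL mice as Prkca and Prkce. With the region score as a covariate, the log2 fold change with age was -0.39 ± 0.36 for Prkca (limma adjusted p = 0.705) and -0.29 ± 0.17 for Prkce (limma adjusted p = 0.532). Under this covariate no gene of the 16978 passed (limma, with 2014 at an unadjusted p under 0.05). Of 6 thalamus markers, 1 (Lef1) was called higher, where 10.7% of all genes were, and the list had summed levels of 16.8 to 26.8 FPKM at 5 months and 16.4 to 52.8 FPKM at 15 months in AL mice. With the thalamus score as a covariate the values were -0.74 ± 0.26 for Prkca (limma adjusted p = 0.0755) and -0.34 ± 0.12 for Prkce (limma adjusted p = 0.0638), and 1747 genes passed. Both genes kept a negative fitted value under either score, without passing.

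**Figure D3:**
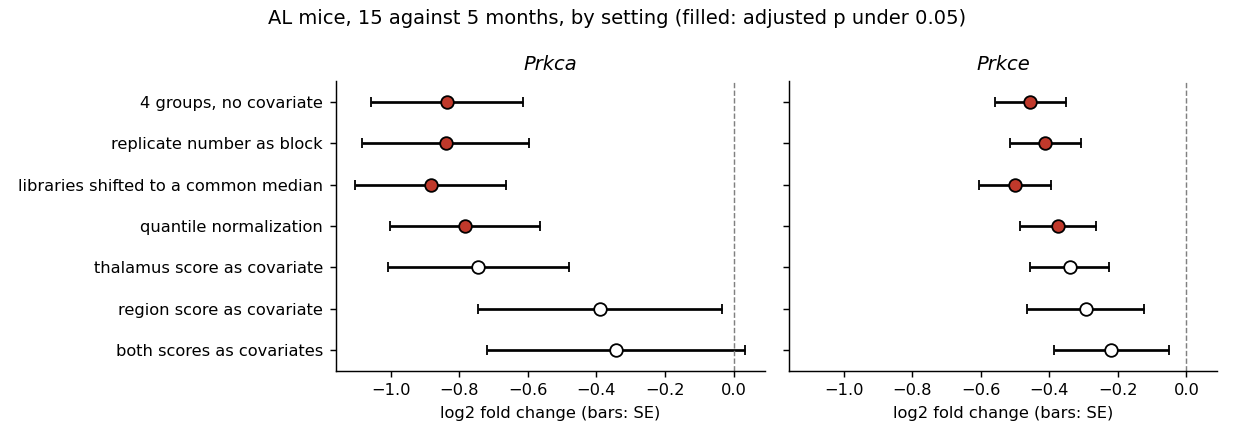
Log2 fold change with age in AL mice (horizontal axis, bars for the SE) of Prkca and Prkce under 7 settings, filled where the limma adjusted p is under 0.05. Both genes pass with and without the replicate block and under each scaling, and both move toward 0 and fail once a marker score enters the fit, down to -0.34 and -0.22 with both scores.

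The CR mice at 15 months had the widest range of the region score of any group, from -2.36 to 1.53, which shows how the levels ran within a group. The CR mouse with the lowest score, -2.36 in replicate 3, had 41.2 FPKM of Prkca and 127 FPKM of Prkce. The mouse with the highest, 1.53 in replicate 0, had 19.4 FPKM of Prkca and 99.6 FPKM of Prkce. Replicate 4, however, with a score of 1.35, had the highest Prkca of the group at 51.0 FPKM and 124 FPKM of Prkce. Its mean log2 level of the CA1 list, 1.73, was the lowest of the group. For the neocortex and subiculum list it had 3.08, toward the low end of the group's range of 2.83 to 4.40. That mouse also had the highest mean log2 level of CA3 pyramidal neuron markers (the CA3 score), 4.25 against 2.39 to 3.41 in the rest of its group. In both groups at 5 months the highest CA3 score went with the highest Prkca (4.69 in AL and 4.53 in CR mice). In AL mice at 15 months the CA3 scores ran from 2.64 to 2.95, and the highest went with the lowest Prkca. Their part was not tested. Within groups, over 22 libraries with group means removed, the correlation with the region score was -0.34 for Prkca and -0.27 for Prkce, and -0.20 for each of Prkcb, Prkcd and Prkcz. Single lists ran more closely with some of the genes. Computed in the same way, the correlation with the neocortex and subiculum list was -0.66 for Prkce, -0.49 for Prkca and -0.44 for Prkcd. That with the interneuron list was -0.71 for Prkce and -0.64 for Prkcd, that with the endothelium list -0.48 for Prkca, and those of Prkce with the thalamus and oligodendrocyte lists -0.41 and -0.36. With the CA1 list it was 0.17 for Prkca, 0.019 for Prkce and 0.38 for Prkcz. Prkcz was also at 0.39 with the interneuron list, 0.35 with the neocortex and subiculum list and 0.34 with the oligodendrocyte list. The CA3, dentate granule cell and choroid plexus lists were not part of these correlations. The scores and the gene levels come from the same libraries.

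**Figure D4:**
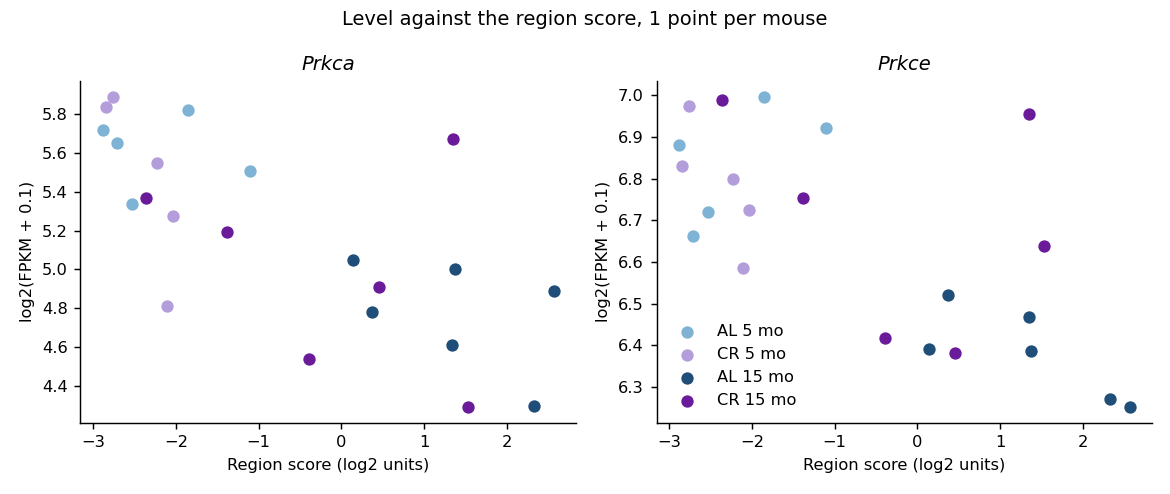
Level of Prkca and Prkce as log2(FPKM + 0.1) (vertical axes) against the region score (horizontal axis, log2 units), 1 point per mouse, coloured by group. AL mice at 15 months lie right of 0.138 and AL mice at 5 months left of -1.10, while CR mice at 15 months spread from -2.36 to 1.53, with 1 of them high in both genes at 1.35.

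Markers of the other cell lists were mostly not called with age in AL mice, where 9.97% of all genes were called lower and 10.7% higher. Called lower were 2 of 5 dentate granule cell markers, 3 of 5 choroid plexus markers, 1 of 4 CA3 markers, 1 of 6 oligodendrocyte markers and 1 of 6 microglia markers. Astrocytes had 1 called higher and 1 lower of 6, and the 4 endothelium and 6 interneuron markers had none called. As whole lists, the difference in mean log2 level with age was -2.17 for choroid plexus, -2.03 for dentate granule cell and -0.84 for oligodendrocyte markers. It was -0.81 for CA3, -0.37 for microglia and -0.14 for astrocyte markers, and 0.13 for endothelium and 0.094 for interneuron markers. The ages overlapped in every one of these lists. No fit of the kinase genes was made with these lists as covariates. At 15 months no marker of any list was called between diets, where 0.742% of all genes were. The difference in mean log2 level of CR from AL mice was 1.42 for dentate granule cell and 1.04 for CA1 markers. It was -0.45 for neocortex and subiculum markers and -1.49 for the region score, and the other lists lay between -0.19 and 0.18. The diets overlapped in all of these.

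Some pairs of kinase genes ran together between mice. Over the 22 libraries, with group means removed, the correlation of log2 levels was 0.67 between Prkca and Prkce, 0.48 between Prkcd and Prkce and 0.45 between Prkcb and Prkcz. Prkcz ran against both genes that fell, at -0.32 with Prkca and -0.42 with Prkce. Among 13838 genes with a mean of at least 1 FPKM, the 3 whose levels followed Prkca most closely were Rem2 (r = 0.94), Nell2 (0.91) and Wbscr17 (0.90), which reached 0.92, 0.83 and 0.84 within groups. For Prkce they were Dclk2 (0.92), Arid1b (0.91) and Kctd12 (0.90). Prkcb was followed by Rasgrp1 (0.87), a diacylglycerol-binding activator of Ras, and by Kalrn (0.85) and Dlgap1 (0.82), which encode a synaptic exchange factor and a postsynaptic scaffold. Prkcz was followed by Kifc2 (0.85), Adrbk1 (0.83) and Extl1 (0.81). The closest genes to Prkcd were less close, namely 5930403L14Rik (0.71), Cyp26b1 (0.68) and Limd1 (0.67). These correlations are descriptions over libraries that share their group differences and tissue makeup.

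Other isoforms that were followed did not pass with age in AL mice. Prkci, which encodes the atypical iota kinase, stood at 17.9 and 18.9 FPKM at the 2 ages (limma adjusted p = 0.510), and Prkch and Prkcq averaged 1.09 and 3.53 FPKM over all libraries. Within the summed FPKM of the 5 genes described here, Prkcz accounted for 17.5 ± 0.907% (SD, n = 5) in the younger AL mice and 23.4 ± 0.697% (n = 6) in the older, with ranges of 16.0 to 18.4% and 22.1 to 24.1%. Its share in CR mice was 18.6 ± 2.01% at 5 months and 21.8 ± 4.05% at 15 months, with overlapping ranges. The share of Prkca ran from 11.7 to 15.3% in AL mice at 5 months and from 6.11 to 11.4% in AL mice at 15 months. A share depends on the other genes in the sum, and these shares were not tested.

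Around the kinases, 68 genes that act upstream, beside or downstream of them were followed in 8 lists. With age in AL mice 12 rose and 10 fell, together 22 of 68 beside the 20.6% of all genes, and their median log2 fold change was -0.09. Among 10 receptors that couple to Gq, the G protein that turns on phospholipase C, 3 rose and 3 fell. The histamine receptor Hrh1 went from 1.69 to 6.26 FPKM (log2 fold change 1.82) and the adrenergic receptors Adra1b and Adra1a changed by 1.24 and 0.59. Those that fell were more abundant, with Adra1d at -1.28, the muscarinic receptor Chrm1 at -0.47 and the glutamate receptor Grm5 at -0.43.

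Downstream of the receptors, Gnaq, the Gq alpha subunit itself, fell from 66.1 to 47.1 FPKM (-0.49), and 3 phospholipase C genes rose, namely Plcd3 (1.07), Plcb4 (0.78) and Plcd1 (0.50), while 8 of the 12 genes of that list did not pass. Of 9 diacylglycerol kinases, which remove the lipid that activates PKC, Dgkg (-0.90) and Dgkz (-0.69) fell and Dgka (0.39) rose. Of 11 other proteins that bind diacylglycerol through a C1 domain, Rasgrp1 (-0.69) and the chimaerin Chn1 (-0.48) fell, and Unc13c (1.86), Rasgrp2 (0.89) and Unc13b (0.42) rose.

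Pdpk1, the kinase that primes newly made PKC, was at 25.9 and 25.6 FPKM, and did not pass. The phosphatases that remove PKC's tail phosphates split, with Phlpp1 lower (-0.23) and Phlpp2 higher (0.33). Of 11 scaffolds and binding partners only Akap12 was called (1.04), and of 9 substrates only Add2, a spectrin-binding adducin (-0.41). The well-known substrates Marcks, Gap43 and Nrgn did not pass, with adjusted p of 0.0657, 0.349 and 0.0926 (limma). In CR mice with age, 2 of the 68 passed, where 3.36% of all genes did: Htr2c fell by 1.46 on the log2 scale (limma adjusted p = 0.0268) and Adra1d by 0.85 (limma adjusted p = 0.0499). Htr2c is also strongly expressed in choroid plexus, and 4 of the 5 choroid plexus markers fell in the same comparison; their part was not tested. Between diets none of the 68 passed, where 0.742% of all genes did at 15 months and 0% at 5 months.

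**Figure D5:**
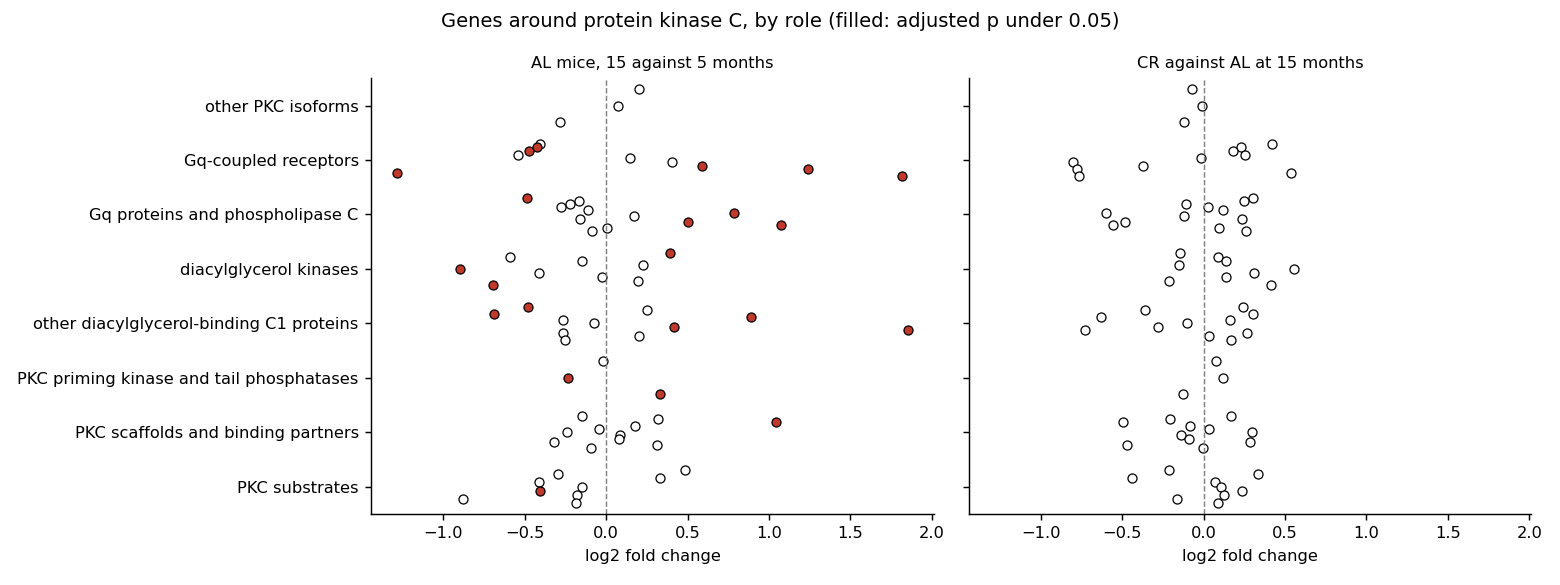
Log2 fold change (horizontal axis) of the 68 genes around protein kinase C in 8 lists by role (vertical axis), with age in AL mice and between diets at 15 months, filled where the limma adjusted p is under 0.05. In the age comparison 22 genes are filled, on both sides of 0, and in the diet comparison none.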

How the data were processed

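Messenger RNA from the CA1 region of 22 mice was sequenced, 1 library per mouse, and groups were taken from the labels. The authors aligned the reads with TopHat to mm10, removed duplicates with Picard and deposited FPKM from Cufflinks for 23361 genes, and these FPKM were used as deposited. The annotation release is not given in the sources used here. Whole reads could not be recovered (at most 2.75% of the genes compared lay on a common ratio, within 0.5%). The depth of each library is therefore unknown and counting error has no interval here. Precision rests on the spread between mice. Median FPKM per library was 2.51 to 3.10, 18281 to 19175 genes were above 0, and rows of microRNAs and small nucleolar RNAs held 40.2 to 64.3% of the summed FPKM. No libraries were identical.

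The 16978 genes with a mean of at least 0.1 FPKM were tested as log2(FPKM + 0.1), a scale that understates changes of low genes. All 4 groups entered 1 fit with limma 3.58.1 in R 4.3.3 (group means, 6 contrasts, eBayes with trend), with Benjamini-Hochberg adjustment within each contrast. The steps were tested on simulated data. Exact permutation tests used all divisions of the libraries. Figures and sequence searches used Python 3.11.15, pandas 2.3.3 and matplotlib 3.10.9. Promoter windows are from RefSeq on GRCm38.p6, positions from GENCODE M21 on GRCm38.

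The 5 genes, the 8 pathway lists (68 genes) and the 11 marker lists (60 genes) were chosen with earlier results of these data known, and the motifs after the sequences were seen. Named genes are the 5 kinases, genes of these lists, and for each kinase the 3 genes with the highest Pearson correlation over the libraries. Alternatives were pseudocounts of 1 and 0.01, other filters, median and quantile scaling, no trend, a block for the replicate number, a fit of the 2 groups compared alone, marker scores as covariates (both together was added after seeing the data) and each library left out. An item of the lists is not reported here.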

Additional observations from a re-analysis of the deposited data

Results flagged for a closer look

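Of 28 groups of values examined, 2 held a library that stood apart by Dixon's test; chance alone gives such a library in about 1 of 20 groups. Prkcd in CR mice at 5 months had 12.4 FPKM in replicate 4, where the nearest other mouse had 4.93 FPKM (a gap of 0.838 of the group's range). The same library had the highest choroid plexus score of all 22, 5.42 on the log2 scale. The other CR mice of that age had 0.713 to 3.46. That library's interneuron score of 5.88 was the lowest of its group, and its thalamus score of 1.39 and CA3 score of 4.53 were the highest. The part of these scores in the Prkcd value was not tested. Prkcz in CR mice at 15 months had 58.0 FPKM in replicate 4, where the nearest was 70.6 FPKM (a gap of 0.674 of the range). That library had the highest Prkca of its group and a region score of 1.35. Its CA3 score of 4.25 was the highest of its group, and the part of these scores in the Prkcz value was not tested.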

How the results depend on the processing

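The fall of Prkca and Prkce in AL mice passed under every alternative without a marker score and with each library left out. The number of the 5 genes called with age in AL mice was 2, 3 after quantile normalization (Prkcz added) and 0 with the region score, the thalamus score or both as covariates (with both, Prkca -0.34 and Prkce -0.22; limma adjusted p = 0.785 and 0.678); the cause was not tested. With libraries left out that number stayed at 2, and for CR mice with age, CR against AL at 15 months and CR at 15 months against AL at 5 months it ranged from 0 to 1 (Prkcz in the first and last without CR replicate 4 at 15 months, 0.21 in each; Prkce in the other without CR replicate 5, 0.37).

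The replicate numbers do not pair the mice: over 31 same-numbered pairs the correlation of deviations ran from -0.139 to 0.163, 2 were above 0.1, and 5 of 22 libraries were closest to their own number. With the replicate block Prkca was -0.84 and Prkce -0.41, and it changed no call of the 5 genes; over all genes CR against AL at 15 months went from 126 to 323 calls.

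Reversals all concern differences that did not pass. Prkcd with age in AL mice was 0.013 with the block, 0.27 with the region score, 0.0074 with the thalamus score and 0.31 with both. Prkcb with age in CR mice was 0.0035 after quantile normalization, 0.077, 0.021 and 0.12 with those scores, and Prkce 0.0083, 0.0037 and 0.079. At 15 months Prkcb was -0.0024 with both scores, Prkcd -0.0080 with the region score and -0.021 with both, and Prkcz -0.0070 after quantile normalization. Prkcz was -0.011 at 5 months after the median shift and -0.010 in the interaction after quantile normalization.
With libraries left out in turn, Prkca ranged from -0.24 to 0.031 for diet at 5 months; Prkcb from -0.15 to 0.041 with age in CR mice and -0.028 to 0.18 for diet at 15 months; Prkcd from -0.27 to 0.068 with age in AL mice, -0.00067 to 0.45 with age in CR mice, -0.0065 to 0.33 and -0.39 to 0.063 for diet at 15 and 5 months, and -0.011 to 0.19 for CR at 15 against AL at 5 months; Prkcz from -0.030 to 0.047 for diet at 5 months and -0.013 to 0.088 in the interaction.

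Counts over all genes moved further. Age in AL mice gave 3502 calls, 1747 with the thalamus score and 0 with the region score; 1809 were higher and 1693 lower, against 1441 and 2286 after the median shift. CR against AL at 15 months gave 126 (56 higher, 70 lower), 54 with the thalamus score, 4 with the region score, 6 with both, 0 with only the 2 groups, 77 after quantile normalization (52 and 25) and 138 after the median shift (87 and 51). Age in CR mice gave 570, and 304, 58, 341, 15 and 324 with a mean of at least 1 FPKM, the region score, the thalamus score, both and only the 2 groups. CR at 15 against AL at 5 months gave 529, and 340, 43, 42 and 218 with that filter, the region score, both and only the 2 groups. Leaving out single libraries moved the count for CR against AL at 15 months by over 1.5 times for each of the 12, from 15 (without AL replicate 0, AL replicate 4 or CR replicate 3) to 492 and 732 (without CR replicates 5 and 0). Age in CR mice gave 331 and 347 without CR replicates 1 and 4 at 5 months. CR at 15 against AL at 5 months gave 297, 181 and 211 without AL replicates 1, 2 and 4, and 342, 925 and 842 without CR replicates 0, 2 and 3. With 5 or 6 mice a group and the depth of each library unknown, Prkcd at about 5 FPKM had the widest intervals.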
